A study of Mus musculus with 6 samples.

Results

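The immunity-related GTPase (IRG) genes Irgm1, Irgm2, Igtp and Iigp1 and the guanylate-binding protein (GBP) genes Gbp2, Gbp3, Gbp5, Gbp6 and Gbp7 were followed in 6 RNA-seq libraries of NIH3T3 cells, an established line of mouse fibroblasts. These 9 genes, of 24062 gene symbols counted, were taken by symbol. The cells had carried a negative control siRNA or an siRNA against SPT6, a transcription elongation factor and histone chaperone encoded by Supt6, for 48 h. They were then left untreated (the titles give 0 h) or given recombinant mouse IFN-beta at 100 units/ml for 4 h. Each untreated group had 1 library and each IFN-beta group had 2, numbered replicates 1 and 2. All cells had thus been transfected with an siRNA, and a single siRNA sequence against SPT6 was used. No untreated library carries a 4 h label, so IFN-beta and the 4 h of culture cannot be told apart. The labels do not say whether replicates were separate cultures, so each p-value measures the spread between these libraries, which may be technical.

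IRG and GBP proteins are interferon-induced GTPases of cell-autonomous defence. They gather on vacuoles that hold intracellular parasites and bacteria and help to break them open. Among the IRG proteins, the products of Irgm1, Irgm2 and Igtp (also called Irgm3) sit on the cell's own membranes and keep effector IRG proteins such as the product of Iigp1 (Irga6) inactive there. GBP proteins belong to the dynamin superfamily, and some of them are anchored in membranes by a prenyl group. Type I interferons such as IFN-beta act through a complex that includes STAT2 and IRF9 on the interferon-stimulated response element (ISRE), whereas interferon gamma acts on the gamma-activated site (GAS), and both kinds of element are known from IRG and GBP genes.

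The stretches before the start sites are shown because each member with a promoter window held a motif of the interferon elements in at least 1. RefSeq promoter windows (GRCm38.p6; 250 bases before to 50 bases after a start) matched 7 of the 9 members by symbol, and Iigp1 and Gbp6 had no entry. The windows were searched on both strands for an ISRE-like motif, GAAA followed after 2 bases of any kind by a second GAAA, and for a GAS-like motif, TTCNNNGAA, which reads the same on both strands. Each line below runs 5′ to 3′ on the strand of the gene, from 10 bases before the first match to the base before the start site, with matches in capitals.
Irgm1: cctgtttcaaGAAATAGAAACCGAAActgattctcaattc
Igtp: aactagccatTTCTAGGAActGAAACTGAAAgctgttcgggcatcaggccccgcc
Irgm2: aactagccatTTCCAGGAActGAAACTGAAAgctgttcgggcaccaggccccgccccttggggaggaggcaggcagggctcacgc
Gbp2: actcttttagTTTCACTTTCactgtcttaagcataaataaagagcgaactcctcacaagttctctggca
Gbp3: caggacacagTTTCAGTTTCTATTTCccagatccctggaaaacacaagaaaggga
Gbp7: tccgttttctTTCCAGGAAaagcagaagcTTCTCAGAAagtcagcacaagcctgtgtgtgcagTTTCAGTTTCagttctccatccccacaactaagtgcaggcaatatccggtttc
The Irgm1 stretch is chr11:48871421-48871460 (minus strand), that of Igtp chr11:58199501-58199555 (plus strand) and that of Irgm2 chr11:58214892-58214976 (plus strand). The GBP stretches, all on the plus strand, are chr3:142620594-142620662 (Gbp2), chr3:142559989-142560043 (Gbp3) and chr3:142530220-142530335 (Gbp7).

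An ISRE-like match stood in at least 1 window of 7 of 7 members, which had 8 windows in all. Of 32851 RefSeq windows of the same length, 3.44% held such a match. In the GBP genes the ISRE-like match is read on the opposite strand, so that it appears as runs of TTTC. Irgm1 and Gbp3 each held 2 overlapping ISRE-like matches. GAS-like matches stood in the windows of Igtp, Irgm2, Gbp5 and Gbp7, 4 of 7, against 8.3% of all windows, and both motifs together in the same 4, against 0.454%. In Gbp5 the ISRE-like match began 165 bases before the start, farther than in the other members, where the first ISRE-like match began 30 to 64 bases before it. A second RefSeq start of Gbp3 had neither motif in its window. The 50 bases after the start were found in a GENCODE transcript of the same gene for Irgm1, Igtp, Gbp2, Gbp3 and Gbp5 and not for Irgm2 and Gbp7. That check does not test where transcription starts, so every start used is uncertain. The Gbp7 stretch ends at base 142530335, shortly before the GENCODE gene start at 142530342. The stretches of Irgm1, Irgm2 and Gbp5 lie inside their GENCODE genes. These matches describe letters and do not show that a factor binds.

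**Figure D1:**
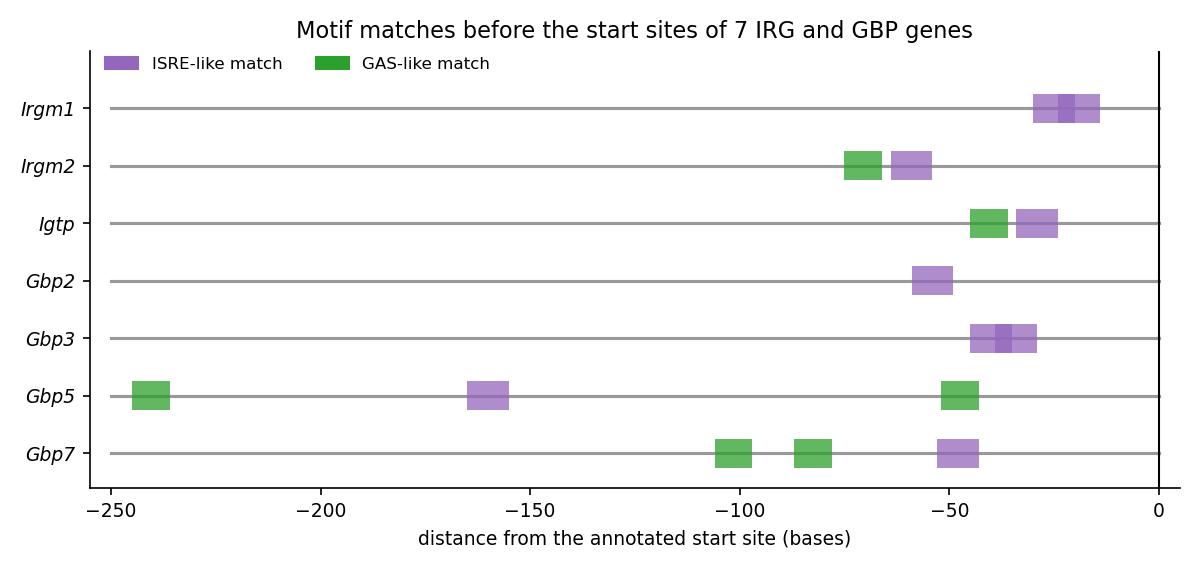
Positions of ISRE-like (purple) and GAS-like (green) matches in the 250 bases before the RefSeq start site (0, black line) of the 7 members with a promoter entry. The horizontal axis is the distance from the start site in bases; overlapping matches appear darker. Every member carries an ISRE-like match, and in Irgm2 and Igtp a GAS-like match lies 2 bases before it.

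In Igtp and Irgm2 the GAS-like match ends 2 bases before the ISRE-like match, and the first 55 bases of both stretches are identical at 53 positions (96.4%). A search for that arrangement (the GAS-like motif, 2 bases of any kind, the ISRE-like motif), made after it had been seen in these 2 genes, found it in 5 of the 32851 windows (0.0152%). The 5 belong to Igtp, Irgm2 and 3 other genes of the IRG family, Tgtp1, Tgtp2 and Gm12185.

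Per GENCODE for GRCm38, all 9 members are protein-coding. Irgm1 (chr11:48861968-48871683, minus strand), Igtp (chr11:58199556-58207591, plus strand) and Irgm2 (chr11:58199618-58222782, plus strand) are on chromosome 11, where Igtp and Irgm2 overlap, and Iigp1 is on chromosome 18. Gbp5 (chr3:142493978-142522344), Gbp7 (chr3:142530342-142550149), Gbp3 (chr3:142560026-142573209) and Gbp2 (chr3:142620602-142638008) lie in 1 cluster on the plus strand of chromosome 3, with Gbp2b between Gbp3 and Gbp2, and Gbp6 (chr5:105270702-105293698, minus strand) belongs to another GBP cluster on chromosome 5. Of all 50-base stretches of a member's transcripts, the share also found in transcripts of another gene was 70.7% for Gbp6, 12.7% for Gbp7, 11.8% for Igtp and 7.83% for Irgm2, and 0.379% to 3.75% for the other members. Reads from such stretches may be lost or credited to a relative, and the sources used here do not give the strand setting of the counting, so Gbp6 in particular is uncertain. For Gbp6 most of the sharing was with the overlapping gene Gm43302, which is not among the symbols in the files, and for Igtp all of it was with Irgm2.

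Counts assigned to genes ranged from 7935961 to 17596498 per library, and the SPT6 siRNA library was the shallower in each of the 3 pairs with the same replicate number. Levels are given as CPM, that is, counts scaled to the effective library size (TMM factors). Supt6 itself was at 175, 177 and 189 CPM in the control libraries and at 101, 108 and 88.4 CPM in the SPT6 siRNA libraries, without overlap. Of 10 fibroblast markers all 10 were detected, at a summed 12281 to 18298 CPM. T and B cell, endothelial and epithelial markers summed to at most 5.91 CPM in each list and library. The 7 macrophage markers summed to 7.72 to 11.1 CPM in the control libraries and to 15.1 to 18.4 CPM with SPT6 siRNA. Of these markers, Ptprc was at 0 to 3 counts in every library, Emr1 at 0 or 1 count and Itgam at 0 to 7 counts. Lyz2 was at 0 to 15 counts, Csf1r at 12 to 37 and Cd14 at 42 to 72. Cd68 stood at 2.38, 2.71 and 2.20 CPM in the control libraries (untreated, then IFN-beta replicates 1 and 2). With SPT6 siRNA Cd68 was higher, at 6.47, 7.75 and 9.92 CPM. The fibroblast sum, 16220 to 18298 CPM in the control libraries and 12281 to 13635 CPM with SPT6 siRNA, also differed between the siRNAs. Any part of these shifts in the values below was not tested, and in RNA from whole cultures fewer responding cells and less RNA per cell cannot be told apart.

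All members had far higher levels with IFN-beta than in untreated cells, where Irgm1 and Gbp2 stood at 8.55 to 16.4 CPM and the other members at or under 3.48 CPM, and Gbp5 stayed low in every library. Their counts summed to 29.6 CPM in the untreated control library and 43.0 CPM in the untreated SPT6 siRNA library. With IFN-beta the sum was 2420 and 1318 CPM in the control libraries, against 1806 and 911 CPM after SPT6 siRNA (replicates 1 and 2). In each of the 9 members the 4 IFN-beta libraries fell in the same order, with control replicate 1 highest, then SPT6 siRNA replicate 1, control replicate 2 and SPT6 siRNA replicate 2. Of all 13185 genes tested, 8.96% had this order.

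**Figure D2:**
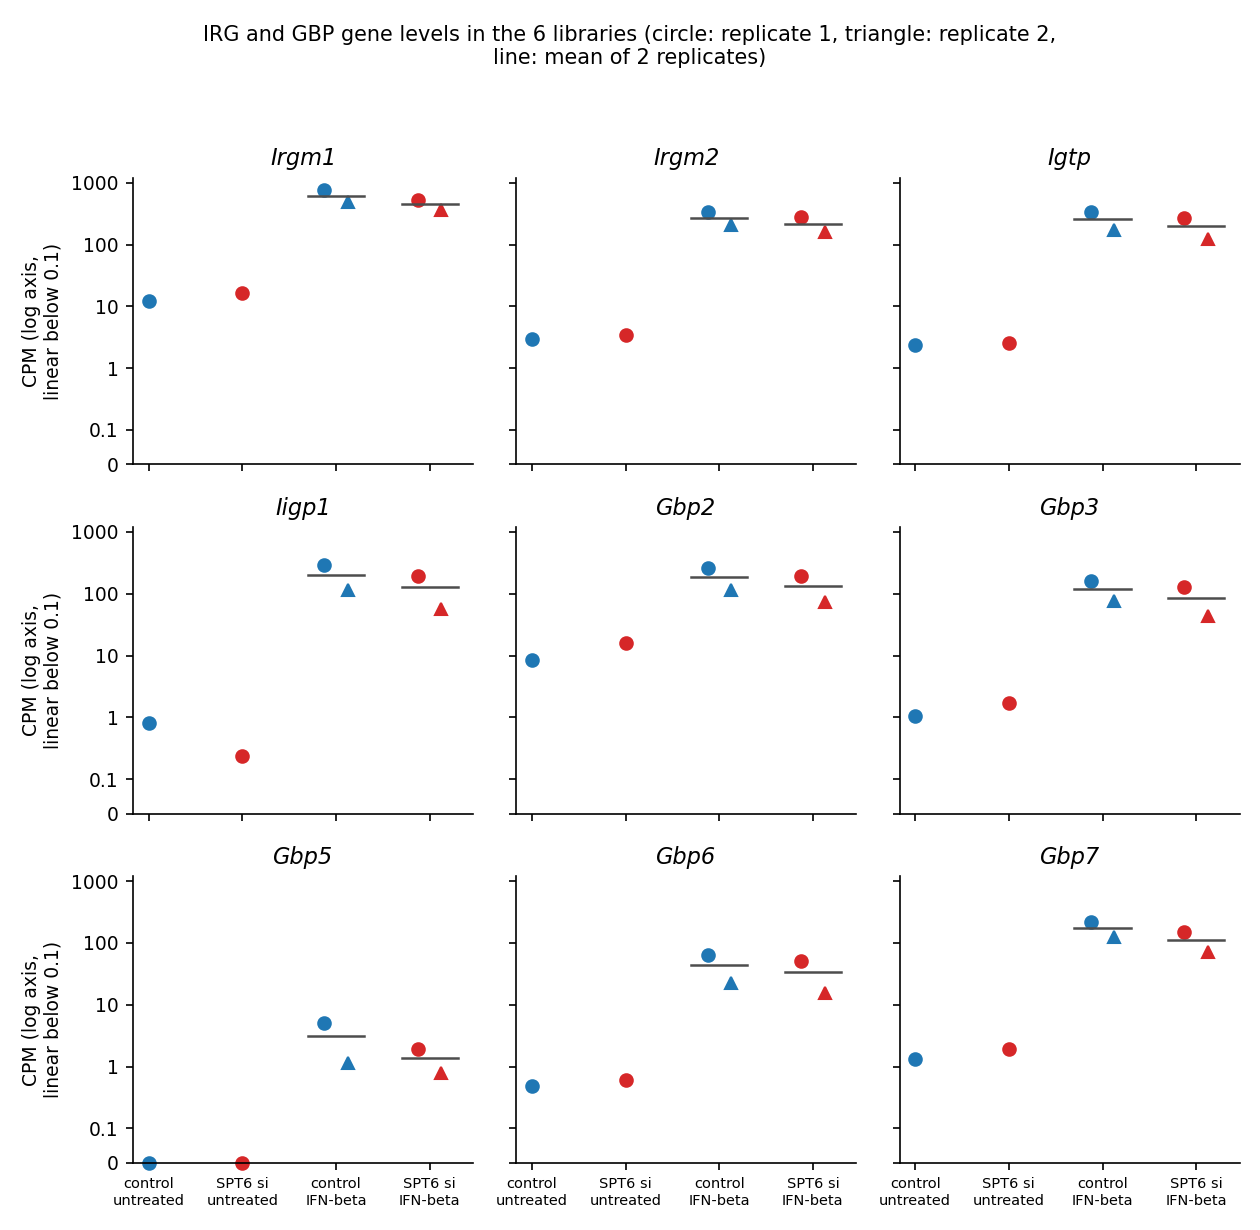
CPM of each member in the 6 libraries on a log axis that is linear below 0.1, with control siRNA in blue and SPT6 siRNA in red. Circles are replicate 1, triangles replicate 2 and lines the mean of 2 replicates; in every panel both red IFN-beta points lie below the blue point of the same shape, and SPT6 siRNA replicate 1 lies above control replicate 2.

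Irgm1, whose product guards host membranes and without which mice resist infection poorly, was the most abundant member by CPM with IFN-beta. It stood at 12 CPM (control siRNA) and 16.4 CPM (SPT6 siRNA) untreated, at 752 and 483 CPM (618 ± 190, SD, n = 2) under IFN-beta with control siRNA, and at 534 and 362 CPM (448 ± 121) under IFN-beta with SPT6 siRNA. Both untreated libraries lay far below every IFN-beta library, and the IFN-beta groups overlapped. Irgm2, whose product is a Golgi-associated regulator, stood at 2.96 and 3.48 CPM untreated, at 330 and 208 CPM (269 ± 86.3) under IFN-beta with control siRNA, and at 274 and 161 CPM (218 ± 79.8) under IFN-beta with SPT6 siRNA. Igtp, whose product sits on the endoplasmic reticulum and lipid droplets, stood at 2.38 and 2.52 CPM untreated, at 337 and 172 CPM (255 ± 117) under IFN-beta with control siRNA, and at 270 and 124 CPM (197 ± 103) under IFN-beta with SPT6 siRNA. For Irgm2 and Igtp the untreated pair was almost level and the IFN-beta groups again overlapped.

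Iigp1, the effector GTPase of the set, had the lowest untreated level of the 4 IRG members. It was at 10 and 2 counts untreated (0.822 CPM in the control library and 0.240 CPM in the SPT6 siRNA library), at 289 and 114 CPM (202 ± 124, SD, n = 2) under IFN-beta with control siRNA, and at 196 and 57.4 CPM (127 ± 98.2) under IFN-beta with SPT6 siRNA. It was the only 1 of 9 members whose SPT6 siRNA library was lower than its control in the untreated pair as well as in both IFN-beta pairs (28.3% of all genes tested), and the untreated value rests on few counts.

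Among the GBP genes of chromosome 3, Gbp2 and Gbp3 encode proteins that coat pathogen vacuoles. Gbp2 stood at 8.55 and 16.2 CPM untreated (control siRNA first), at 260 and 114 CPM (187 ± 103, SD, n = 2) under IFN-beta with control siRNA, and at 196 and 74.7 CPM (135 ± 85.7) under IFN-beta with SPT6 siRNA. Gbp3 stood at 1.07 and 1.68 CPM untreated, at 163 and 77.5 CPM (120 ± 60.4) under IFN-beta with control siRNA, and at 130 and 43.0 CPM (86.3 ± 61.2) under IFN-beta with SPT6 siRNA. In both genes the untreated SPT6 siRNA library was the higher of its pair while each IFN-beta SPT6 siRNA library was the lower. Gbp7, whose product is known for assembling an oxidase on phagosomes, stood at 1.31 and 1.92 CPM untreated, at 220 and 126 CPM (173 ± 66.4) under IFN-beta with control siRNA, and at 153 and 72.4 CPM (113 ± 56.8) under IFN-beta with SPT6 siRNA. Its IFN-beta groups overlapped like those of the others.

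Gbp5 and Gbp6 were the least abundant. Gbp5, known from macrophages for its part in inflammasome assembly, had 0 counts in both untreated libraries, 67 and 19 counts with IFN-beta and control siRNA (5.04 and 1.13 CPM) and 19 and 9 counts with IFN-beta and SPT6 siRNA (1.94 and 0.783 CPM). Its window held the ISRE-like match farthest from the start. Gbp6 stood at 0.493 and 0.60 CPM untreated (6 and 5 counts), at 64.3 and 22.3 CPM (43.3 ± 29.7, SD, n = 2) under IFN-beta with control siRNA, and at 51.8 and 15.3 CPM (33.5 ± 25.8) under IFN-beta with SPT6 siRNA. Both showed the order of the 4 IFN-beta libraries seen in the other members.

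Levels can be set side by side only per length. Per kilobase of exon and with IFN-beta and control siRNA, Igtp was highest at 126 ± 57.8 CPM per kb (SD, n = 2), followed by Irgm1 (106 ± 32.7), Gbp2 (74.3 ± 41.0) and Irgm2 (72.9 ± 23.4). Gbp3 (36.8 ± 18.5), Iigp1 (34.7 ± 21.3) and Gbp7 (30.8 ± 11.8) formed a middle group, above Gbp6 (7.27 ± 4.99) and Gbp5 (0.465 ± 0.417). The 2 replicates of neighbours in this order failed to overlap only between Irgm2 and Gbp3, Gbp7 and Gbp6, and Gbp6 and Gbp5. With IFN-beta and SPT6 siRNA the order was the same except that Irgm2 (59.0 ± 21.6) stood above Gbp2 (53.8 ± 34.1), and these overlapped. In untreated cells the order differed at the top, where Gbp2 led in both libraries at 3.40 CPM per kb with control siRNA and 6.43 CPM per kb with SPT6 siRNA, ahead of Irgm1 at 2.06 and 2.83 CPM per kb.

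The first comparison asked how the members responded to IFN-beta with control siRNA. Irgm1 rose 51.5-fold (95% counting interval of the untreated value 43.8 to 61.0) and Irgm2 90.9-fold (65.6 to 130), and these were the 2 of 9 members called. On the log2 scale the differences were 5.68 ± 0.49 (SE; adjusted p = 0.0226) and 6.50 ± 0.60 (adjusted p = 0.0413) by edgeR's quasi-likelihood test with Benjamini-Hochberg adjustment over all 13185 genes tested. In the background, 0.137% of all genes were called higher. The counting intervals cover counting error in the single untreated library, a replicate 1, and not the spread between replicates. By IFN-beta replicate the folds were 62.7 and 40.3 for Irgm1, outside its interval, and 111 and 70.2 for Irgm2, inside its interval. All 9 members had an unadjusted p under 0.05 and a positive difference, against 5.29% of all genes. DESeq2 called 8 of the 9, all but Gbp5, against 1.48% of all genes. The members' median log2 difference was 6.73, or 6.50 with Gbp5 at its lower bound, against -0.01 over all genes. All 9 members passed the filter on low counts, but 3 of them, Iigp1, Gbp5 and Gbp6, passed only through the IFN-beta libraries.

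Of the 7 members that edgeR did not call, Gbp7, Igtp, Gbp3, Iigp1 and Gbp6 had a larger difference than Irgm1, Gbp2 had a smaller one and Gbp5 gives only a lower bound. Each of the 7 had a larger error than the 2 called. For Gbp7 the ratio was 131 and the log2 difference 7.03 ± 0.84 (adjusted p = 0.108, edgeR). Igtp had a ratio of 107 and a difference of 6.73 ± 0.90 (adjusted p = 0.141), and Gbp3 a ratio of 113 and a difference of 6.80 ± 1.23 (adjusted p = 0.311). For these genes control replicate 2 was at 0.476 to 0.573 of replicate 1. Iigp1 had a ratio of 246 (counting interval 134 to 512; 7.92 ± 1.57) and Gbp6 one of 87.8 (40.4 to 239; 6.42 ± 1.53). Gbp2, the member with the highest untreated level per length, had the smallest ratio among those with untreated counts, 21.9 (18.0 to 26.8; 4.45 ± 0.97). Gbp5 was at least 12.5-fold higher, with a floor of 3 counts in the untreated library. The test has 2 residual degrees of freedom, from the IFN-beta groups, and assumes that the single untreated libraries vary as those do. With SPT6 siRNA IFN-beta replicate 1 left out it called 5 members, Igtp, Gbp3 and Gbp7 added, and without control IFN-beta replicate 1 it called 4, Igtp and Gbp7 added.

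The same response with SPT6 siRNA used no library of the first comparison, although both share 1 estimate of the spread. Every member was again far above its untreated library, with Igtp highest among those with more than 3 untreated counts, at a ratio of 78.2, and Gbp2 lowest at 8.36 (counting interval 7.06 to 9.97). By IFN-beta replicate the Gbp2 folds were 12.1 and 4.62, both outside that interval. None of the 9 members was called by edgeR, against 0.0455% of all genes called higher. All 9 had an unadjusted p under 0.05, against 3.84% of all genes, and DESeq2 called 7, all but Gbp2 and Gbp5, against 0.948%. Irgm1 (27.3-fold; log2 4.77 ± 0.47, adjusted p = 0.0503) and Irgm2 (62.6-fold; 5.96 ± 0.60, adjusted p = 0.0584) lay just above the threshold in edgeR's test. Without the filter on low counts, and with any 1 of the IFN-beta libraries left out, both were called, which made 2 or 3 members. The median log2 difference of the members was 5.87 (5.78 when Iigp1 and Gbp5, at 2 and 0 untreated counts, take their ratio or bound), against 0.00 over all genes.

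Ratios of the remaining members with SPT6 siRNA were 58.7 for Gbp7, 56.0 for Gbp6 and 51.4 for Gbp3. Iigp1 had a ratio of 529, but with 2 untreated counts its counting interval ran from 146 to 4369. Gbp5 was at least 3.78-fold higher. Over the 7 members with more than 3 untreated counts under both siRNAs, the ratios were 21.9 to 131 (median 90.9) with control siRNA and 8.36 to 78.2 (median 56.0) with SPT6 siRNA.

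**Figure D3:**
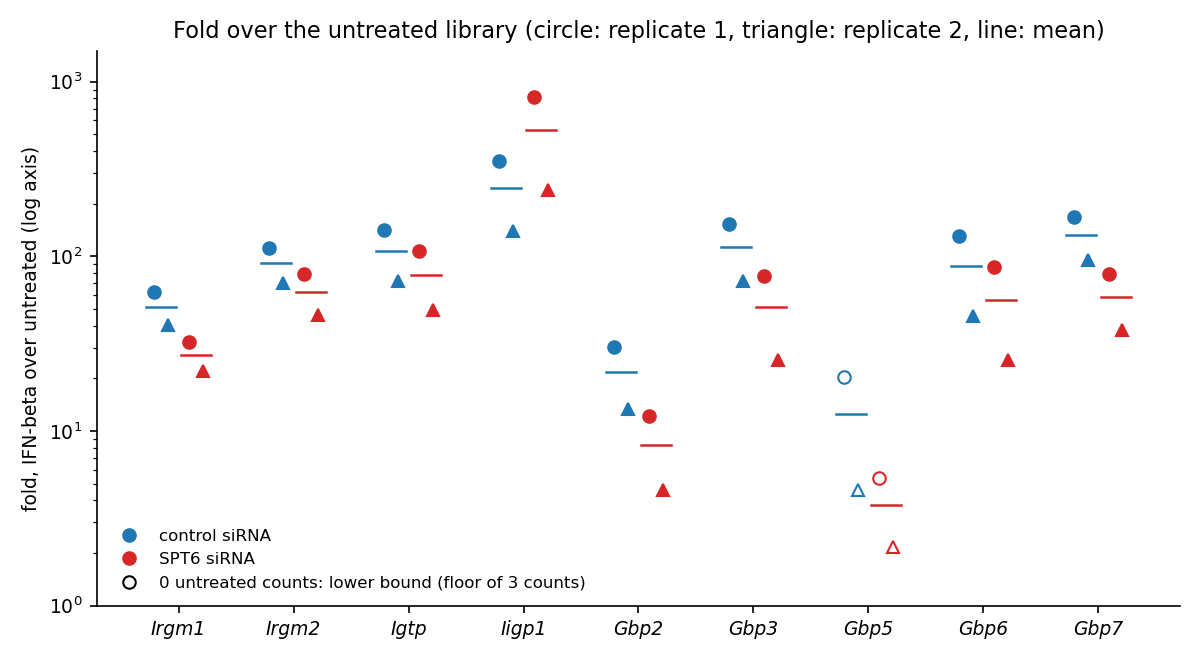
Fold of each IFN-beta library over the untreated library of the same siRNA on a log axis, with control siRNA in blue and SPT6 siRNA in red (circles replicate 1, triangles replicate 2, lines the mean). Open symbols for Gbp5 are lower bounds with a floor of 3 counts; the mean with SPT6 siRNA lies below that with control siRNA for every member except Iigp1, whose untreated SPT6 siRNA library held 2 counts.

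The comparison with replicates on both sides was that of the siRNAs in cells given IFN-beta. Every member was lower with SPT6 siRNA within both replicate numbers, by moderate amounts. No difference passed the main test, which has no replicate block (a term for the replicate number). The fit with a block, which called more members, is given with the processing results. Within replicate number 1 the CPM ratio of SPT6 siRNA to control siRNA was 0.384 (Gbp5) to 0.831 (Irgm2) with a median of 0.755. Within number 2 it was 0.502 (Iigp1) to 0.776 (Irgm2) with a median of 0.686. Of all genes tested, 36.5% were below control in both pairs. Groups without overlap, SPT6 siRNA the lower, occurred in 0 of 9 members, against 21.3% of all genes. Replicate 2 was below replicate 1 in all 9 members under both siRNAs, which held for 33.1% of all genes.

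In the median, replicates of 1 group lay farther apart than the siRNAs did within a replicate number. With control siRNA and IFN-beta, replicate 2 was at 0.224 (Gbp5) to 0.643 (Irgm1) of replicate 1, with a median of 0.476. With SPT6 siRNA it was at 0.292 (Iigp1) to 0.678 (Irgm1), with a median of 0.404. Irgm1 and Irgm2, the 2 members called in the control response, were among the steadiest, at 0.643 and 0.630 with control siRNA.

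**Figure D4:**
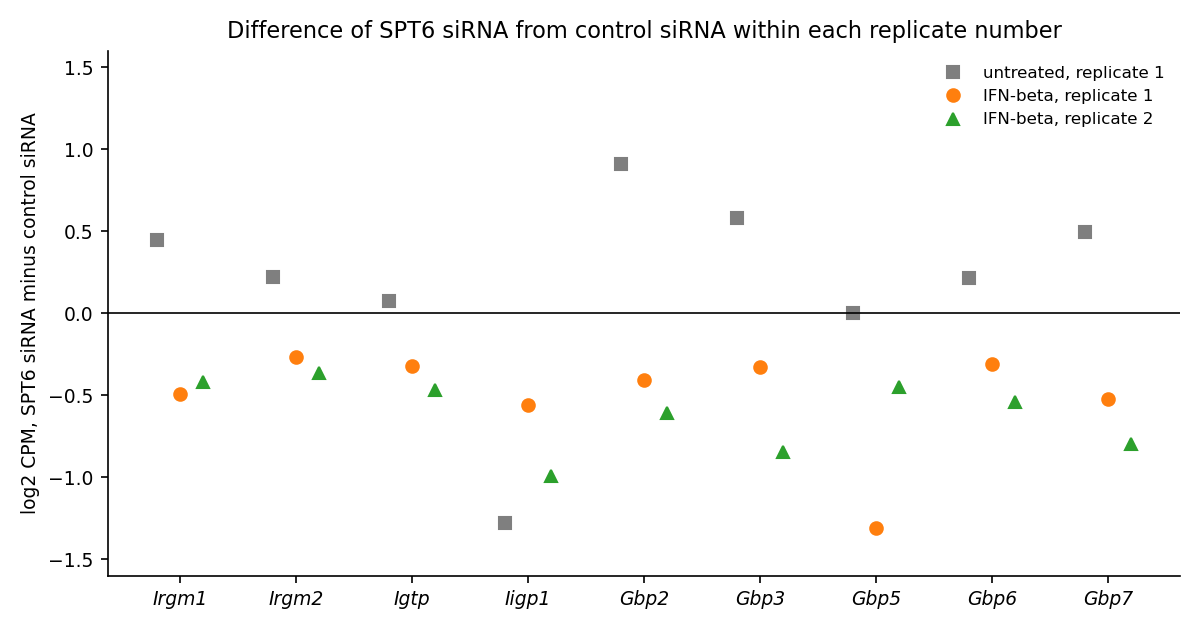
Log2 CPM difference of SPT6 siRNA from control siRNA within each replicate number (prior count 2), for the untreated pair (grey squares) and the IFN-beta pairs of replicate 1 (orange circles) and replicate 2 (green triangles). All 18 IFN-beta points are below 0, whereas 7 untreated points are above 0, Gbp5 is at 0 and Iigp1 is below.

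In the fitted comparison edgeR called 0 of 9 members, against 0% of all genes, and 0 had an unadjusted p under 0.05, where 4.31% of all genes did in the lower direction. DESeq2 called 0 members as well, against 0.0303% of all genes called lower. The log2 differences were -0.46 ± 0.29 (SE) for Irgm1 (adjusted p = 0.561), -0.62 ± 0.43 for Gbp7 (adjusted p = 0.614) and -1.18 ± 0.82 for Gbp5 (adjusted p = 0.612, edgeR). Iigp1 was at -0.67 ± 0.75, Gbp3 at -0.48 ± 0.63, Gbp2 at -0.47 ± 0.60, Gbp6 at -0.37 ± 0.76, Igtp at -0.37 ± 0.48 and Irgm2 at -0.30 ± 0.33. The members' median was -0.47, against -0.02 over all genes, and the IRG and GBP members had similar medians of -0.42 and -0.48. The direction changed with the libraries included, in fits whose groups no longer held the same replicate numbers. With all 4 IFN-beta libraries, all 9 members were below control within both numbers. Without control replicate 1 only Irgm1 and Gbp7 were below 0 and the median was 0.16, and without SPT6 siRNA replicate 2 it was 0.02 with 4 of 9 below 0. Without control replicate 2 the median was -0.94, and without SPT6 siRNA replicate 1 it was -1.34.

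Whether the response itself differed between the siRNAs was tested as an interaction, and no member passed without a replicate block. For the 7 members with more than 3 untreated counts under both siRNAs, the fold with SPT6 siRNA was 0.383 (Gbp2) to 0.732 (Igtp) of that with control siRNA, with a median of 0.529. The log2 difference of the responses was -1.39 ± 1.13 (SE) for Gbp2, -1.16 ± 1.13 for Gbp7, -1.13 ± 1.67 for Gbp3 and -0.92 ± 0.53 for Irgm1. It was -0.65 ± 2.51 for Gbp6, -0.54 ± 0.74 for Irgm2 and -0.45 ± 1.15 for Igtp, and 1.06 ± 3.23 for Iigp1, whose sign rests on 2 untreated counts. Gbp5 had no untreated count and gave no usable error. Its value here repeats its siRNA difference with IFN-beta, and the medians and counts below include it. EdgeR called 0 of 9 members, against 0% of all genes in either direction, 0 had an unadjusted p under 0.05, against 0.0834% of all genes in the lower direction, and DESeq2 called 0. The members' median was -0.92, against -0.01 over all genes, and was -1.16 for the 5 GBP and -0.49 for the 4 IRG members. Without control IFN-beta replicate 1 the median was -0.15, with Igtp, Iigp1, Gbp5 and Gbp6 above 0, and it was -1.81 without SPT6 siRNA IFN-beta replicate 1. The IFN-beta groups in these fits likewise no longer held the same replicate numbers.

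In untreated cells the comparison of the siRNAs had 1 library on each side and no test. Most members were somewhat higher with SPT6 siRNA there, unlike with IFN-beta, and the ratios above contain this difference in their denominators. The CPM ratio was 1.89 for Gbp2 (104 counts with control siRNA, 135 with SPT6 siRNA), 1.57 for Gbp3 (13 and 14 counts), 1.46 for Gbp7 (16 and 16 counts) and 1.37 for Irgm1 (146 and 137 counts). It was 1.22 for Gbp6, 1.18 for Irgm2 and 1.06 for Igtp, and 0.292 for Iigp1. In all, 7 members were above control, Iigp1 was below and Gbp5 was at 0 in both, and 52.2% of all genes were below control in this pair. The median log2 difference of the 9 members was 0.22, against -0.02 over all genes. Gbp2 and Irgm1 are the only 2 members with more than 100 counts in each untreated library, so the other ratios carry wide counting error.

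The other genes of both families were then examined, from lists by symbol. Of 12 other IRG genes in the files 10 were tested, and with control siRNA 9 of these had a positive response to IFN-beta (median log2 difference 6.25), against 49.4% of all genes. EdgeR called 0 of them higher (0.137% of all genes) and DESeq2 7 (1.48%), with 9 at an unadjusted p under 0.05 (5.29%). Tgtp1, Tgtp2, Gm4951, Gm12250 and Gm5431 were under the filter's cut of 0.864 CPM in both untreated libraries. They were tested only through their IFN-beta libraries, so their positive response was nearly fixed by the filter. Ifi47, which encodes another effector IRG protein, stood at 1.07 and 1.80 CPM untreated (control siRNA first), at 148 and 59.8 CPM under IFN-beta with control siRNA, against 104 and 36.4 CPM under IFN-beta with SPT6 siRNA. Tgtp2, which shares the arrangement of motifs with Igtp and Irgm2, stood at 0.164 and 0.240 CPM untreated and at 88.2 and 38.0 CPM against 52.0 and 24.1 CPM with IFN-beta. Its sequence overlaps that of Tgtp1 (86.6% of 50-base stretches shared with other genes), which had the same shape at 51.9 and 18.6 CPM against 29.3 and 11.3 CPM. Gm12185 (68.0 and 30.6 against 53.2 and 26.4 CPM), Gm12250 (41.9 and 14.3 against 32.7 and 6.61 CPM) and Gm4951 (28.8 and 7.48 against 17.4 and 4.61 CPM) were also below control within both replicate numbers. So was F830016B08Rik, at 8.06 and 4.63 against 5.20 and 4.09 CPM.

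Exceptions in the IRG family were few. 9930111J21Rik1 was at 13.6 and 7.42 CPM under IFN-beta with control siRNA, against 16.3 and 15.6 CPM under IFN-beta with SPT6 siRNA, the reverse direction, with a log2 difference of 0.61 ± 0.33 (SE; adjusted p = 0.513, edgeR). It shares 83.2% of its 50-base stretches with other genes. Gm5431 was at 3.69 and 1.54 against 3.47 and 2.17 CPM. Irgq, which is not known as an interferon-induced gene, was at 38.9 and 35.0 CPM untreated and at 30.3 and 31.9 against 29.9 and 38.6 CPM with IFN-beta, and its promoter window held no ISRE-like match. 9930111J21Rik2 and Irgc1 stayed at or under 0.510 CPM in every library. Over the 10 tested genes 7 were below 0 in the comparison of siRNAs with IFN-beta, against 52% of all genes, with a median of -0.48 and 0 called by edgeR, 0 at an unadjusted p under 0.05 and 0 by DESeq2. ISRE-like matches stood in the windows of 5 of the 9 other IRG genes that had a window. Besides Irgq, Ifi47, Gm5431 and 9930111J21Rik2 had none. Of these, Ifi47 rose 97.4-fold with IFN-beta and control siRNA, so a window without a match also occurred in a strongly induced gene.

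Of 6 other GBP genes in the files 5 were tested, and all 5 had a positive response with control siRNA (median 5.33), against 49.4% of all genes. EdgeR called 0 of them higher (0.137% of all genes) and DESeq2 4 (1.48%), with 4 at an unadjusted p under 0.05 (5.29%). Gbp2b, Gbp4, Gbp10 and Gbp11 were under the filter's cut of 0.864 CPM in both untreated libraries. They were tested only through their IFN-beta libraries, so their positive response was nearly fixed by the filter. With IFN-beta, Gbp9 stood at 58.4 and 21.4 CPM in the control libraries, against 42.3 and 10.6 CPM after SPT6 siRNA. Gbp4 stood at 20.3 and 5.28 against 13.4 and 2.87 CPM, and Gbp2b at 17.9 and 9.32 against 15.6 and 6.35 CPM. Gbp10, of which 84.1% of 50-base stretches occur in other genes, most of them in Gbp6, stood at 43.7 and 16.3 against 38.9 and 10.2 CPM. Gbp11 stood at 24.2 and 2.91 against 19.1 and 2.26 CPM, and Gbp8 did not exceed 0.408 CPM. All 5 tested genes were below 0 in the comparison of siRNAs with IFN-beta, against 52% of all genes, with a median of -0.35 and 0 called by edgeR, 0 at an unadjusted p under 0.05 and 0 by DESeq2. Of 5 giant inducible GTPase genes, a related interferon-induced family, Gvin1, Gm4070, Gm17757 and Gm4759 were at 0 in every library and Gm1966 had 1 count in each untreated library. The sequence these genes share with others was not measured, so absent RNA and reads not uniquely aligned cannot be told apart.

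Genes of transcription factors that act on ISRE and GAS elements were examined next. With control siRNA 7 of the 9 tested were above 0 with IFN-beta, against 49.4% of all genes, and the other 2 were below. EdgeR called 2 higher, against 0.137% of all genes, Irf7 (log2 5.19 ± 0.55, adjusted p = 0.0432) and Irf9 (3.22 ± 0.36, adjusted p = 0.0436). The 7 had an unadjusted p under 0.05, against 5.29% of all genes. Irf9, the DNA-binding subunit of the type I interferon complex, stood at 6.16 and 5.04 CPM untreated, at 67.5 and 47.9 CPM under IFN-beta with control siRNA, against 49.96 and 38.5 CPM under IFN-beta with SPT6 siRNA. Stat2, its partner, stood at 29.7 and 28.3 CPM untreated and at 273 and 193 against 205 and 138 CPM. In the comparison of siRNAs with IFN-beta 8 of the 9 factor genes were below 0, against 52% of all genes, with a median of -0.38 and 0 called by edgeR, 0 at an unadjusted p under 0.05 and 0 by DESeq2. The part of these factors in the members' values was not tested.

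The proteins of both families are loaded onto vacuoles with the help of the autophagy conjugation machinery and of ubiquitin ligases, so that list was examined as well. Of 16 genes, edgeR called 1 higher with control siRNA (0.137% of all genes). It was Trim21, a ubiquitin ligase that acts on pathogen vacuoles (log2 3.74 ± 0.42, adjusted p = 0.0436). An unadjusted p under 0.05 was found for 1 higher (5.29% of all genes) and 1 lower (2.94%), and DESeq2 called 1 higher (1.48%). In the comparison of siRNAs with IFN-beta 14 of the 16 were above 0, the opposite side from the members, with a median of 0.22, against 48% of all genes above 0. EdgeR called 0 of them higher (0% of all genes), 5 had an unadjusted p under 0.05 (7.36% of all genes in that direction) and DESeq2 called 2 (0.44%). Map1lc3b, which encodes the autophagosome protein LC3B, stood at 127, 138 and 95.7 CPM in the control libraries (untreated, then IFN-beta replicates 1 and 2) and at 269, 287 and 314 CPM in the SPT6 siRNA libraries. Gabarapl2, which encodes the LC3 relative GATE-16, stood at 42.7, 47.5 and 51.3 against 88.1, 97.8 and 111 CPM. For both, every SPT6 siRNA library lay above every control library. Both were named for their small p in this comparison, and the share of all genes with that pattern was not counted. The log2 differences with IFN-beta were 1.36 ± 0.22 and 1.08 ± 0.17 (SE), with an adjusted p = 0.238 for both by edgeR and adjusted p = 0.000139 and 0.00662 by DESeq2.

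As a last description, the members moved nearly as 1 unit over the 6 libraries. Pearson's r of log2 CPM between members had a median of 0.989 over 36 pairs, with a lowest value of 0.947. The 8 other genes most like the members' mean were Trim34a, Parp9, Oas2, Oasl2, Tgtp2, Parp14, Tmprss2 and Gm12185, with r of 0.999 at the lowest over 6 libraries. These correlations mostly express the step from untreated to IFN-beta, which all such genes share, and 71 of 13176 other genes had r above 0.99. Parp9, an interferon-induced gene, stood at 14.5 and 16.8 CPM untreated and at 286 and 172 CPM with control siRNA against 218 and 119 CPM with SPT6 siRNA, which repeats the members' order of the 4 IFN-beta libraries. Oasl2, of the oligoadenylate synthetase family, had the same order at 187 and 77.2 against 127 and 45.7 CPM.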

How the data were processed

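The authors deposited raw counts per gene symbol. TopHat2 2.1.0, HTSeq 0.6.1p1, DESeq2 and the builds mm10 and GRCm38 appear in the submitters' processing notes, without their roles. The annotation and strand setting are not given in the sources used here. The 9 members, the gene lists and the tests were chosen with earlier results of these data known. Named genes were the members, Supt6, the other IRG, GBP and giant GTPase genes in the files, of each other list up to 3 with the smallest p in the control response and up to 3 in the comparison of siRNAs with IFN-beta, and the 8 most correlated genes. Of the genes named by this rule, 1 is not reported here.

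Lines that name no gene were left out: 32.9% to 38.0% of all reads were in genes and 27.9% to 31.3% not uniquely aligned. In R 4.3.3, genes kept by filterByExpr (count minimum 10) were fitted with edgeR 4.0.16 (TMM factors, robust glmQLFit, glmQLFTest), with 4 group means over 6 libraries without a replicate block. P-values were adjusted by Benjamini-Hochberg over 13185 genes, and called means an adjusted p under 0.05. Standard errors (SE) divide the log2 difference by the square root of its F. Log2 CPM used a prior count of 2. A gene at 0 untreated counts was given a floor of 3 counts in that library, and other ratios have exact 95% Poisson intervals of the untreated count, which cover counting error only. Same-group IFN-beta libraries were not duplicates (chi-square per degree of freedom 39.6 and 35.0). Gene positions and transcripts came from GENCODE (GRCm38). The scripts were tested on simulated counts with 200 changed genes. Alternatives were DESeq2 1.42.0, its size factors in edgeR, no filter, a replicate block, a prior count of 0.5 and leaving out each IFN-beta library. Leaving out an untreated library would leave no group.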

Additional observations from a re-analysis of the deposited data

How the results depend on the processing

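Results are given as the count called, first for the members and then for all genes. For IFN-beta with control siRNA the counts of 2 and 18 became 8 and 204 with DESeq2, 9 and 957 (4.83% higher, 2.43% lower) with the replicate block, and 77 genes without the filter. For IFN-beta with SPT6 siRNA the counts of 0 and 6 became 7 and 129 with DESeq2, 2 and 46 without the filter, and 9 and 545 (2.96% higher, 1.18% lower) with the block. For SPT6 siRNA with IFN-beta the counts of 0 and 0 became 62 genes with DESeq2, 66 without the filter, and 7 members (all but Irgm2 and Gbp5) and 2638 genes (10.1% higher, 9.91% lower) with the block. For the difference of responses the block called 1 member, Gbp2 (log2 -1.43, adjusted p = 0.0081, edgeR), and 4 genes (0.00758% lower). The block fit has 1 residual degree of freedom, and the labels do not tie equal numbers across groups. Over 13185 genes, the difference between IFN-beta replicates 1 and 2 with control siRNA correlated at 0.56 with that under SPT6 siRNA. That value rests on 2 pairs of libraries. The cause of these shifts was not tested.

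With 1 IFN-beta library left out at a time, members called ranged from 2 to 5 (control response) and 2 to 3 (SPT6 siRNA response), and genes called from 16 to 52 and from 9 to 25. No member or gene was called in the other comparisons. The medians ran from 6.16 to 7.14 (control response), -1.34 to 0.16 (SPT6 siRNA with IFN-beta) and -1.81 to -0.15 (difference of responses). In SPT6 siRNA with IFN-beta, single members ran from -0.75 to 0.076 (Irgm2), -1.05 to 0.20 (Igtp), -1.83 to 0.15 (Iigp1), -1.34 to 0.25 (Gbp2), -1.50 to 0.16 (Gbp3), -1.96 to 0.26 (Gbp5) and -1.51 to 0.59 (Gbp6), lowest without SPT6 siRNA replicate 1 and highest without control replicate 1. Without SPT6 siRNA replicate 2 the median was 0.02. In the difference of responses Igtp ran from -1.15 to 0.13, Iigp1 from -0.11 to 1.90 and Gbp6 from -1.81 to 0.32. Gbp5 kept its range of -1.96 to 0.26, since it had no untreated count. Fits with a library left out compare groups that no longer hold the same replicate numbers. Irgm1 and Irgm2 were called in the control response under every alternative run, and no alternative turned the sign of a member's response to IFN-beta. Depth limits Gbp5 and the untreated values of Iigp1 and Gbp6 most.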

Other observations

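Of the wider dynamin superfamily, to which GBP proteins belong, most genes were not called. Of 16 other genes, edgeR called 1 higher with IFN-beta and control siRNA, the antiviral Mx2 (0.0822 CPM untreated, 145 and 91.9 CPM with IFN-beta, adjusted p = 0.036), against 0.137% of all genes. An unadjusted p under 0.05 was found for 3 higher (5.29% of all genes) and 1 lower (2.94%), and DESeq2 called 2 higher (1.48%). Mx1, a relative of Mx2, stood at 0.247, 83.2 and 40.7 CPM (adjusted p = 0.202, edgeR). Mx1 and Mx2 passed the filter on low counts only through the IFN-beta libraries. The list's median was -0.06 in that response and 0.04 for SPT6 siRNA with IFN-beta. In the latter edgeR called 0 (0% of all genes) and DESeq2 called 0 (0.44% of all genes higher). There 1 gene was higher at an unadjusted p under 0.05, against 7.36% of all genes (Dnm3, a dynamin, log2 0.94 ± 0.29). Ehd4, an endosomal ATPase gene, stood at 44.6 and 47.5 CPM under IFN-beta with control siRNA, against 26.4 CPM untreated (log2 0.80 ± 0.23, adjusted p = 0.449, edgeR).

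Enzymes that attach prenyl groups to proteins such as Gbp2 and Gbp5, or that act on prenylated proteins, showed small differences. Of 5 such genes, edgeR called 0 in the control response (0.137% of all genes higher), and DESeq2 called 0 (1.48% higher). None had an unadjusted p under 0.05 (5.29% of all genes higher, 2.94% lower), and their median was 0.19. For SPT6 siRNA with IFN-beta edgeR called 0 (0% of all genes), DESeq2 0 (0.44% higher) and 0 had an unadjusted p under 0.05 (7.36% higher, 4.31% lower). Icmt, the carboxyl methyltransferase of prenylated proteins, stood at 65.3 and 78.2 CPM in the control libraries, against 85.0 and 108 CPM after SPT6 siRNA (log2 0.43 ± 0.20). Of 9 inflammasome genes, partners of GBP proteins in macrophages, 6 were tested. In the control response edgeR called 0 of them, 0 had an unadjusted p under 0.05 and DESeq2 called 0. Over all genes 0.137%, 5.29% and 1.48% were higher by these 3 rules. For SPT6 siRNA with IFN-beta 3 of the 6 were above 0 and 3 below, with a median of -0.05. EdgeR called 0 (0% of all genes) and DESeq2 0 (0.44% higher). An unadjusted p under 0.05 was found for 1 higher (7.36% of all genes) and 0 lower (4.31%). The 1 was Pycard, the inflammasome adaptor. It was at 1.43 and 1.90 CPM under IFN-beta with control siRNA, against 2.85 and 5.65 CPM after SPT6 siRNA (log2 1.35 ± 0.46, adjusted p = 0.374, edgeR). Casp1 and Il1b, named after their values were seen, were at or under 0.408 CPM and at 0 counts in every library.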
